A study of Mus musculus with 35 samples.

Results

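The genes described are the members of the Ms4a (membrane-spanning 4A) family of mouse that were named for study: Ms4a4a, Ms4a4c, Ms4a6b, Ms4a6c, Ms4a6d, Ms4a7 and Ms4a8a. They were found by gene name in the deposited table, 7 of its 21203 genes, and all 7 were among the 17131 genes tested after a filter on low counts. RNA was sequenced from brain tissue around the treatment site of 34 male C57BL/6N mice, which were 8-9 weeks old when procedures began. All treated mice had a closed head injury, in which a blow is delivered without opening the skull, and received PBS, mesenchymal stromal cells (MSCs) or MSCs transfected with synthetic IL-4 mRNA (IL-4 MSCs) on day 5 by injection into the left hippocampus. The 1 wpi (week post injury) groups were sampled 2 days and the 3 wpi groups 16 days after treatment. Sham mice were neither injured nor injected, and 2 of the 5 were taken at 1 week and 3 at 3 weeks and kept as 1 group. There were 5 mice per group, with 1 library each, and 4 in PBS at 3 wpi, where the authors excluded 1 mouse for anomalous counts.

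Several features limit these groups as a model. IL-4 expression from transfected mRNA is transient, the MSCs were purchased primary cells of the same strain, and no group received an injection without injury. No sequenced group received MSCs transfected with another mRNA. In IL-4 MSCs against MSCs, IL-4 therefore cannot be told apart from transfection itself. The labels give the tissue as left cortex, while the tissue was a strip around an injection that reached the hippocampus. A number in the sample names is shared by all mice of a treated group, and anything that went with it cannot be told apart from the group. Libraries held 29838423 to 41554322 estimated counts, so that 3 counts, the lowest level taken as detected, correspond to 0.0722-0.101 CPM, the count scaled to a common library total. This limit covers counting error only. In bulk tissue, fewer cells of a type and less RNA per cell cannot be told apart. All treated groups were compared with the same Sham mice, so those comparisons share control samples.

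MS4A proteins cross the cell membrane several times and sit beside immune receptors, whose signalling or surface level they can alter. The family includes the B cell antigen CD20 (Ms4a1) and the beta chain of the high-affinity IgE receptor of mast cells (Ms4a2), while several others are expressed mainly in monocytes and macrophages. In brain, Ms4a7 is known as a marker of border-associated and blood-derived macrophages over resting microglia, Ms4a4a as a macrophage surface protein that associates with the beta-glucan receptor dectin-1 (Clec7a), and Ms4a8a as a gene of alternatively activated macrophages.

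The members lie in 1 cluster. On GRCm38, 19 genes of the family span chr19:10962293-11640851 (678.6 kb), and the 7 members span chr19:11067471-11604849 (537.4 kb). In order along the chromosome they are Ms4a8a (ENSMUSG00000024730, chr19:11067471-11081102, minus strand), Ms4a7 (ENSMUSG00000024672, chr19:11321039-11336146, minus), Ms4a4a (ENSMUSG00000101389, chr19:11375523-11392790, plus), Ms4a4c (ENSMUSG00000024675, chr19:11404770-11427246, plus), Ms4a6c (ENSMUSG00000079419, chr19:11469366-11482192, plus), Ms4a6b (ENSMUSG00000024677, chr19:11516512-11531256, plus) and Ms4a6d (ENSMUSG00000024679, chr19:11586604-11604849, minus).

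The Ms4a6 genes are near copies, which matters for how reads were assigned. Over aligned coding bases Ms4a6b was 85.83% identical to Ms4a6c and 81.23% to Ms4a6d, and Ms4a6c was 77.43% identical to Ms4a6d. Ms4a4a and Ms4a4c were 68.06% identical, and the other pairs of members 56.11-62.06%. The longest exact coding run shared by 2 members was 81 bases, in Ms4a6b and Ms4a6d, and it is longer than the 50-base reads. It is shown in capitals within coding bases 80 to 200 of each (GENCODE, GRCm38), with the bases around it in lower case.
Ms4a6b: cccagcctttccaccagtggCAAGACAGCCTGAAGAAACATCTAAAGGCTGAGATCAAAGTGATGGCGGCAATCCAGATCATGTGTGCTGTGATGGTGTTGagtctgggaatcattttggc
Ms4a6d: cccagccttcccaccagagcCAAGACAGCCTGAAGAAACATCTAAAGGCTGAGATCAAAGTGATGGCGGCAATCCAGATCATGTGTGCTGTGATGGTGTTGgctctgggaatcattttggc

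The longest run of Ms4a6b with Ms4a6c was 55 bases, again longer than a read, shown in capitals within coding bases 369 to 463.
Ms4a6b: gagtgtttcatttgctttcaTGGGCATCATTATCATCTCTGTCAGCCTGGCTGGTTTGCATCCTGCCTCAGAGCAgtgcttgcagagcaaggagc
Ms4a6c: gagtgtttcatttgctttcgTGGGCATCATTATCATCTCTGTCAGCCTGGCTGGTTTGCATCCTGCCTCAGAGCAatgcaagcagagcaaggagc

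Such a read has to be divided between genes by estimation. Of the 31-base words of each gene's transcripts, 20.65% of those of Ms4a6c, 16.83% of Ms4a4c, 12.64% of Ms4a6b and 6.64% of Ms4a6d also occurred in other genes, Ms4a4c sharing most with Ms4a4b, a family gene that is no member here. Estimated counts of Ms4a4c, Ms4a6c and Ms4a6d were not whole numbers (by more than 0.001) in 34 of 34 libraries and those of Ms4a6b in 32. Ms4a4a, Ms4a7 and Ms4a8a shared 0% and had whole counts in every library, so their values rest on reads of their own.

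RefSeq promoter sequences (GRCm38.p6, 250 bases before to 50 after the start) were found for 6 of the 7 members, Ms4a6d having no entry. They were searched on both strands for TTC and GAA with any 4 bases between, the palindrome preferred by STAT6, the transcription factor activated by IL-4 signalling. It occurred in the promoters of Ms4a7 and Ms4a6b and in 6.95% of all 32851 promoters in the table. The 250 bases before the first start of Ms4a7 (chr19:11336147-11336396, minus strand) hold the match in capitals, beginning 13 bases before the start. The 250 bases before the start of Ms4a4a (chr19:11375238-11375487, plus strand) hold none and are shown because that gene differed most between groups. The last line gives 30 bases around the match of Ms4a6b, which begins 8 bases after its start (chr19:11518557-11518586, plus strand).
Ms4a7: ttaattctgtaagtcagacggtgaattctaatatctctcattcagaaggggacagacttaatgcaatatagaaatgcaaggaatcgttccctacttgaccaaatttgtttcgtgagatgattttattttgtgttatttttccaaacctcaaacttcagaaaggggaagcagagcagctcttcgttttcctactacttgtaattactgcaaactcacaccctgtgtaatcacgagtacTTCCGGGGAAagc
Ms4a4a: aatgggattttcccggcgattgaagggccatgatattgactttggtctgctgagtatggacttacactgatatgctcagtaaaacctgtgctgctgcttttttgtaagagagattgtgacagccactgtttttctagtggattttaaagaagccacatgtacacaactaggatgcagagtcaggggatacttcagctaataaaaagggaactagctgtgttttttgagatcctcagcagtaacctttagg
Ms4a6b: cagttacaagTTCACAAGAAggaaccaagg

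Other short motifs were as scarce. The AP-1 motif TGANTCA occurred in Ms4a8a, 244 bases before the start, and in a second promoter of Ms4a7, 81 bases before it, against 7.81% of all promoters. The PU.1 motif GAGGAAG (13.6% of all promoters), the C/EBP motif TTGCNNAA (10.8%), the interferon-response motif of GAAA, any 2 bases and GAAA (3.44%), the shorter STAT motif with 3 bases between TTC and GAA (8.3%) and TATAAA (13.6%) were in no member's promoter. Both STAT motifs share their ends, and each was searched on its own. A match is a description of these letters only.

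Ms4a8a passed the filter on low counts only through IL-4 MSCs at 1 wpi and so had to differ there, and counts of members that were higher or lower in that group leave it out. At 1 wpi after PBS, the other 6 were all higher than in Sham at a Benjamini-Hochberg adjusted p under 0.05 in edgeR's quasi-likelihood test, where 8.73% of all tested genes were higher. In these 6 the PBS and Sham mice did not overlap, against 8.09% of all genes without overlap in that direction. After IL-4 MSCs at 1 wpi, the 6 were higher than in Sham (18.4% of all genes), than in PBS (11.2%) and than in MSCs (7.66%), and the 5 IL-4 MSC mice lay above every mouse of those groups in each gene (20.6%, 11.5% and 8.61% of all genes). In each of them, IL-4 MSCs at 1 wpi was the highest of the 7 groups and the one group that did not overlap its neighbour in order of level, and by 3 wpi its levels had fallen back. The median log2 fold change of the 6 was 1.33 in PBS against Sham, 3.30 in IL-4 MSCs against Sham and 2.16 in IL-4 MSCs against PBS, beside -0.01, -0.02 and -0.00 over all tested genes.

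**Figure D1:**
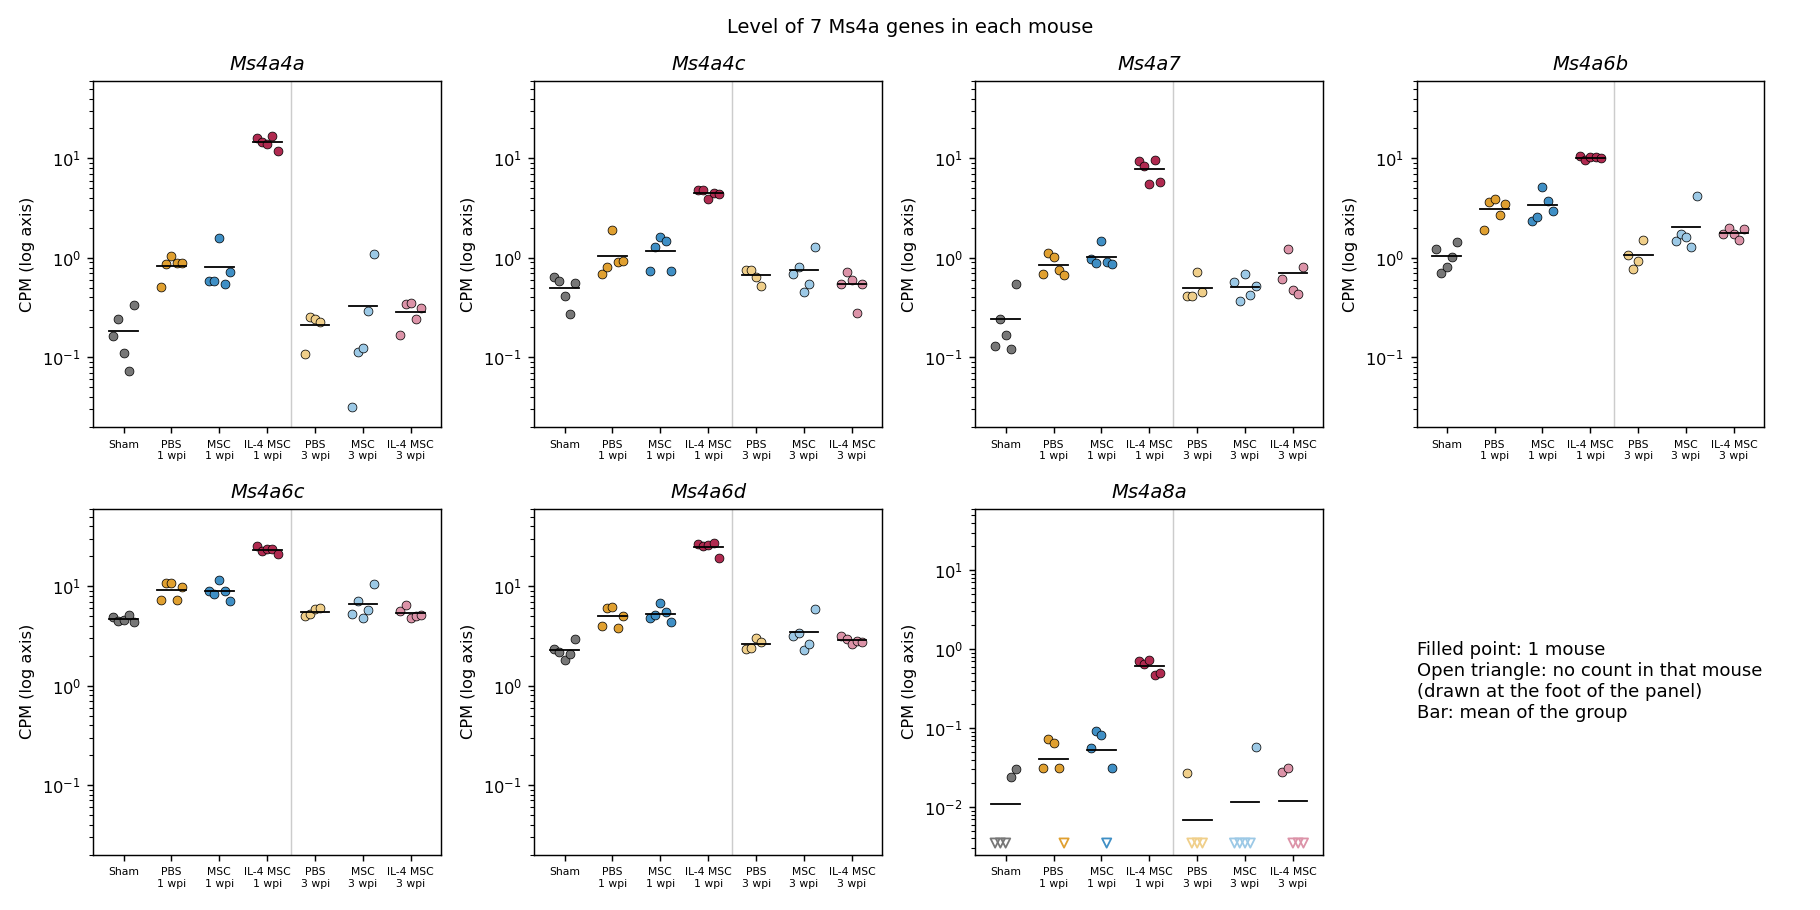
Level of each gene in each of the 34 mice in CPM on a log axis, by group, with 1 point per mouse and a bar for the group mean. The 5 mice given IL-4 MSCs lie above all others at 1 wpi in each panel, from 11.9 to 16.7 CPM for Ms4a4a. Ms4a8a passed the filter on low counts through this group and so had to differ there. Open triangles mark mice with no Ms4a8a count.

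Ms4a4a, the macrophage surface protein that associates with dectin-1, differed most. Sham mice held 0.162, 0.246, 0.111, 0.0722 and 0.336 CPM, and PBS mice at 1 wpi 0.507, 0.859, 1.06, 0.884 and 0.884. MSC mice held 0.583, 0.587, 1.58, 0.548 and 0.72 CPM, and IL-4 MSC mice 15.9, 14.7, 14.1, 16.7 and 11.9. Every injured mouse thus stood above every Sham mouse at 1 wpi, and IL-4 MSC mice formed a group of their own about an order of magnitude higher. Ms4a4a was 2.16 ± 0.48 (log2 fold change ± SE) higher in PBS than in Sham (edgeR adjusted p = 0.00197). In IL-4 MSCs it was 6.25 ± 0.42 higher than in Sham (adjusted p = 1.78e-13) and 4.09 ± 0.34 higher than in PBS (adjusted p = 1.62e-10), with group means of 14.7 ± 1.87 CPM (SD, n = 5) against 0.838 ± 0.201 in PBS and 0.186 ± 0.106 in Sham. At 3 wpi it held 0.109, 0.257, 0.241 and 0.229 CPM after PBS, 0.0319, 0.112, 0.125, 0.294 and 1.09 after MSCs, and 0.168, 0.345, 0.351, 0.241 and 0.314 after IL-4 MSCs. These values overlapped those of Sham, and 2 of the 34 libraries held 3 or fewer counts.

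Ms4a8a, a gene of alternatively activated macrophages, was barely detected outside IL-4 MSCs at 1 wpi. It had 0, 0, 0, 1 and 1 counts in Sham, 1, 3, 2, 1 and 0 in PBS and 2, 3, 3, 0 and 1 in MSCs. IL-4 MSC mice had 21, 23, 25, 15 and 17 counts, or 0.704, 0.65, 0.727, 0.465 and 0.504 CPM. This is the group through which the gene passed the filter, and 29 of 34 libraries held 3 counts or fewer. Scaled for depth, the 101 counts of IL-4 MSCs were 52.9 times the 2 of Sham (95% exact interval 14.3-443) and 14.7 times the 7 of PBS (6.9-37.6), where the intervals cover counting error only. The fitted log2 fold change of 5.27 ± 0.58 against Sham depends on the prior count. Its p-value is not given, since the gene passed the filter through the group tested. For the same reason the intervals of IL-4 MSCs against Sham and PBS are no test. The 7 counts of PBS against the 2 of Sham gave a ratio of 3.59 (0.684-35.4), and that difference was not called (adjusted p = 0.297).

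Ms4a7, the marker of border-associated and blood-derived macrophages, came next in size. Sham mice held 0.13, 0.246, 0.167, 0.12 and 0.549 CPM and PBS mice at 1 wpi 0.697, 1.13, 1.02, 0.758 and 0.678. MSC mice held 0.972, 0.896, 1.49, 0.902 and 0.877 and IL-4 MSC mice 9.42, 8.39, 5.58, 9.56 and 5.84. One Sham mouse stood above the other 4 but below all injured mice of that time, and 2 IL-4 MSC mice stood below the other 3. Ms4a7 was 1.80 ± 0.34 higher in PBS than in Sham (edgeR adjusted p = 0.000247), and in IL-4 MSCs 4.93 ± 0.30 higher than in Sham (adjusted p = 2.81e-14) and 3.13 ± 0.26 higher than in PBS (adjusted p = 1e-10).

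Ms4a4c, the other Ms4a4 gene, moved less and shares words with Ms4a4b. It held 0.642, 0.588, 0.413, 0.272 and 0.562 CPM in Sham, 0.692, 0.813, 1.92, 0.915 and 0.941 in PBS and 0.745, 1.30, 1.61, 1.47 and 0.742 in MSCs at 1 wpi. In IL-4 MSCs it held 4.85, 4.87, 3.87, 4.53 and 4.42. The lowest PBS mouse stood just above the highest Sham mouse, and 1 PBS mouse stood far above the other 4. The difference from Sham was 1.07 ± 0.30 in PBS (edgeR adjusted p = 0.0125), and it was not called when only these groups were fitted (adjusted p = 0.0516) or without PBS replicate 3 (0.0805), with adjusted p between 0.00452 and 0.0805 over 18 alternatives. In IL-4 MSCs it was 3.13 ± 0.28 against Sham (adjusted p = 8.16e-11) and 2.06 ± 0.25 against PBS (adjusted p = 3.04e-07).

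Of the near copies, Ms4a6d had the largest difference in IL-4 MSCs when measured in CPM. It held 2.32, 2.17, 1.81, 2.08 and 2.93 CPM in Sham and 3.99, 6.04, 6.22, 3.76 and 5.01 in PBS at 1 wpi. MSC mice held 4.8, 5.11, 6.73, 5.45 and 4.38 and IL-4 MSC mice 26.3, 25.1, 26.1, 27.3 and 19.2. The last of these stood apart from the other 4, still well above every mouse of the other groups. Ms4a6d was 1.12 ± 0.18 higher in PBS than in Sham (edgeR adjusted p = 4.38e-05), and in IL-4 MSCs 3.39 ± 0.18 higher than in Sham (adjusted p = 1.98e-15) and 2.27 ± 0.17 higher than in PBS (adjusted p = 1.39e-11).

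Ms4a6b and Ms4a6c are its near copies, and in PBS against Sham Ms4a6b had the largest difference of these 3 genes. Ms4a6b held 1.24, 0.707, 0.801, 1.02 and 1.46 CPM in Sham, 1.91, 3.63, 3.87, 2.72 and 3.52 in PBS and 2.35, 2.57, 5.22, 3.76 and 2.98 in MSCs at 1 wpi. In IL-4 MSCs it held 10.7, 9.57, 10.3, 10.3 and 10.1, with the 5 mice close together. Its difference was 1.55 ± 0.27 in PBS against Sham (edgeR adjusted p = 9.19e-05), 3.21 ± 0.26 in IL-4 MSCs against Sham (adjusted p = 1.19e-11) and 1.67 ± 0.23 in IL-4 MSCs against PBS (adjusted p = 2.91e-06). Ms4a6c held 4.9, 4.46, 4.59, 5.13 and 4.4 CPM in Sham and 7.31, 10.7, 10.8, 7.3 and 9.7 in PBS at 1 wpi. MSC mice held 8.92, 8.27, 11.6, 8.98 and 7.01 and IL-4 MSC mice 25.5, 22.6, 23.8, 23.8 and 20.8. Here too the 3 levels of Sham, of PBS with MSCs and of IL-4 MSCs did not overlap. Ms4a6c changed least, by 0.93 ± 0.15 in PBS against Sham (adjusted p = 5.03e-05), 2.24 ± 0.15 in IL-4 MSCs against Sham (adjusted p = 2.6e-13) and 1.31 ± 0.14 in IL-4 MSCs against PBS (adjusted p = 4.1e-08).

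MSCs without IL-4 mRNA gave levels near those of PBS. At 1 wpi, the 6 members other than Ms4a8a were higher in MSCs than in Sham (11% of all genes), by 0.88 ± 0.15 for Ms4a6c to 2.10 ± 0.49 for Ms4a4a, and these 6 did not overlap Sham (11.3% of all genes). Ms4a8a was not called at 9 against 2 counts (adjusted p = 0.142). Between MSCs and PBS, log2 fold changes lay between -0.06 ± 0.38 (Ms4a4a) and 0.34 ± 0.69 (Ms4a8a), and edgeR called 0 of 7 (0.123% of all genes higher and 0% lower), with 0 at an unadjusted p under 0.05 and 0 by DESeq2. Against MSCs, IL-4 MSCs were higher by 4.14 ± 0.34 for Ms4a4a, 2.88 ± 0.25 for Ms4a7 and 2.20 ± 0.17 for Ms4a6d. The differences of Ms4a4c, Ms4a6b and Ms4a6c were 1.91 ± 0.25, 1.57 ± 0.23 and 1.36 ± 0.14. The edgeR adjusted p of these 6 was 1.03e-05 at most. Ms4a8a, at 101 against 9 counts, was 3.40 ± 0.45 higher but passed the filter through this group.

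**Figure D2:**
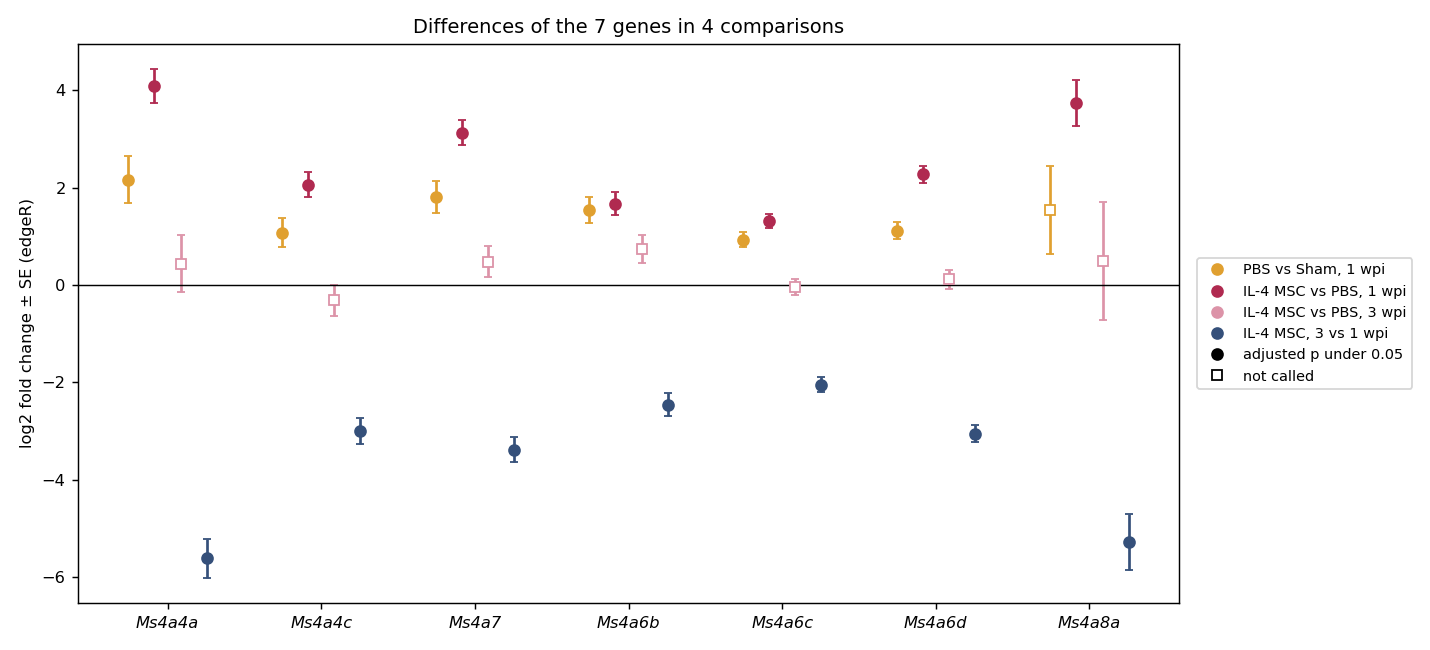
log2 fold change with its SE from edgeR for each gene in 4 comparisons, filled where the adjusted p was under 0.05 and open where not. For IL-4 MSCs against PBS at 1 wpi the genes run from 1.31 for Ms4a6c to 4.09 for Ms4a4a, none is called at 3 wpi, and values are below 0 from 1 to 3 wpi (Ms4a8a passed the filter through IL-4 MSCs at 1 wpi alone).

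The members did not rise by equal amounts. In each mouse the log2 CPM (prior count 2) of 1 member was subtracted from that of another, and the differences were compared between groups by exact two-sided permutation, with 42 p-values adjusted together. Between IL-4 MSCs and PBS at 1 wpi, 13 of the 15 pairs without Ms4a8a changed at an adjusted p under 0.05. Ms4a4a rose relative to each of the other 5, from 0.98 relative to Ms4a7 to 2.70 relative to Ms4a6c, each with the smallest p that 5 against 5 mice can give (exact p = 0.00794, adjusted p = 0.0196) and no overlap of mice. The near copies Ms4a6b and Ms4a6c differed by 0.37, also without overlap. Ms4a4c against Ms4a6b (0.39, adjusted exact permutation p = 0.135) and Ms4a4c against Ms4a6d (-0.20, adjusted exact permutation p = 0.444) were not called. Between PBS and Sham, 4 of the 15 pairs were called. Pairs with Ms4a8a are not counted, since the prior count sets part of their difference in groups at 0 to 3 counts.

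Levels of different genes were compared in TPM, which is scaled for transcript length as well as depth. The 7 members summed to 18.5 ± 2.22 TPM in Sham (SD, n = 5), 37.7 ± 8.03 in PBS, 40.1 ± 8.62 with MSCs and 176 ± 18.3 with IL-4 MSCs at 1 wpi. In Sham, Ms4a6d made up 44.5% of this sum, Ms4a6c 31.9% and Ms4a4a 3.14%. In IL-4 MSCs at 1 wpi the share of Ms4a4a was 26.1%, within 25.3-27.1% in the 5 mice, while Ms4a6d held 28.1% and Ms4a6c 16.1%. In TPM, Ms4a4a thus moved from a minor member to a level near that of Ms4a6d. In CPM, Ms4a6d stayed higher in that group (mean 24.8 against 14.7), and its change depended on the unit (next paragraph). At 3 wpi the share of Ms4a4a was 3.87% and the sum 23.3 ± 2.93 TPM after IL-4 MSCs.

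**Figure D3:**
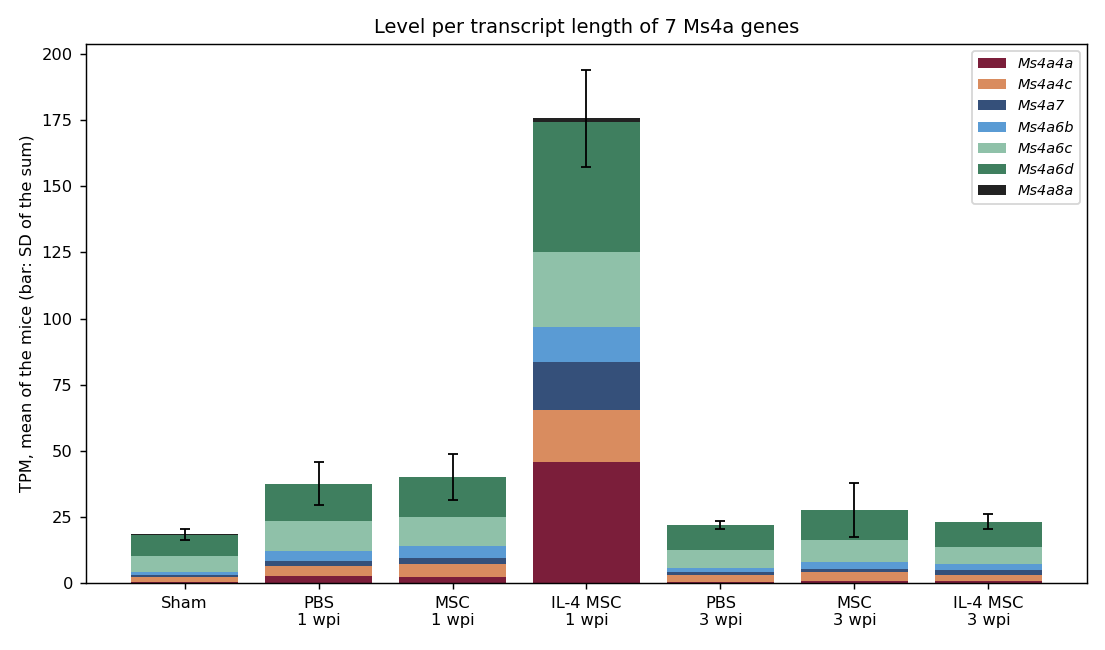
Mean TPM of the 7 genes, stacked, in each group, with the SD of their sum over the mice as error bars. The sum is 176 TPM in IL-4 MSCs at 1 wpi and 18.5 in Sham, and Ms4a4a takes 26.1% of the former and 3.14% of the latter.

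For Ms4a6d the size of the change depended on the unit. Its mean in IL-4 MSCs at 1 wpi was 11 times that of Sham in CPM but 5.99 times in TPM, whereas for Ms4a4a the ratios were 79 and 76.4. The order of the near copies turned with it, since for Ms4a6b the ratios were 9.75 in CPM and 10.2 in TPM. The ratio of CPM to TPM reflects the effective transcript length, and it was divided by that of Ms4a6c, a gene with 1 transcript, in each mouse. For Ms4a6d this quotient was 0.319-0.374 in Sham, 0.384-0.491 in PBS, 0.390-0.475 with MSCs and 0.579-0.640 with IL-4 MSCs at 1 wpi. The IL-4 MSC mice lay above all others, and PBS mice above Sham (exact permutation p = 0.00794 for each of IL-4 MSCs against Sham, PBS and MSCs and for PBS against Sham, n = 5, adjusted p = 0.0397 over 20 tests). Ms4a6d has a transcript of 1418 bases and one of 679, and a higher quotient means that more of the estimated signal lay on the longer one. The quotient was chosen after the values were seen. The longer transcript shares 83 words with Ms4a6b and 19 with Ms4a6c, the shorter one 12 with Pnpla8, and the part of shared reads in this result was not tested. None of Ms4a6b, Ms4a7 and Ms4a4c passed the same test after adjustment. Ms4a4a and Ms4a6c each have 1 transcript, so the quotient of Ms4a4a was nearly fixed in advance (0.378-0.390 over all mice). Its tests, which count among the 20, could show no shift between transcripts. The quotient was different by -0.118 for Ms4a7 in IL-4 MSCs against Sham and by -0.087 for Ms4a4c in IL-4 MSCs against PBS (both with an exact permutation p of 0.0317 before and 0.106 after adjustment), and whether these differ from Ms4a6d was not tested.

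**Figure D4:**
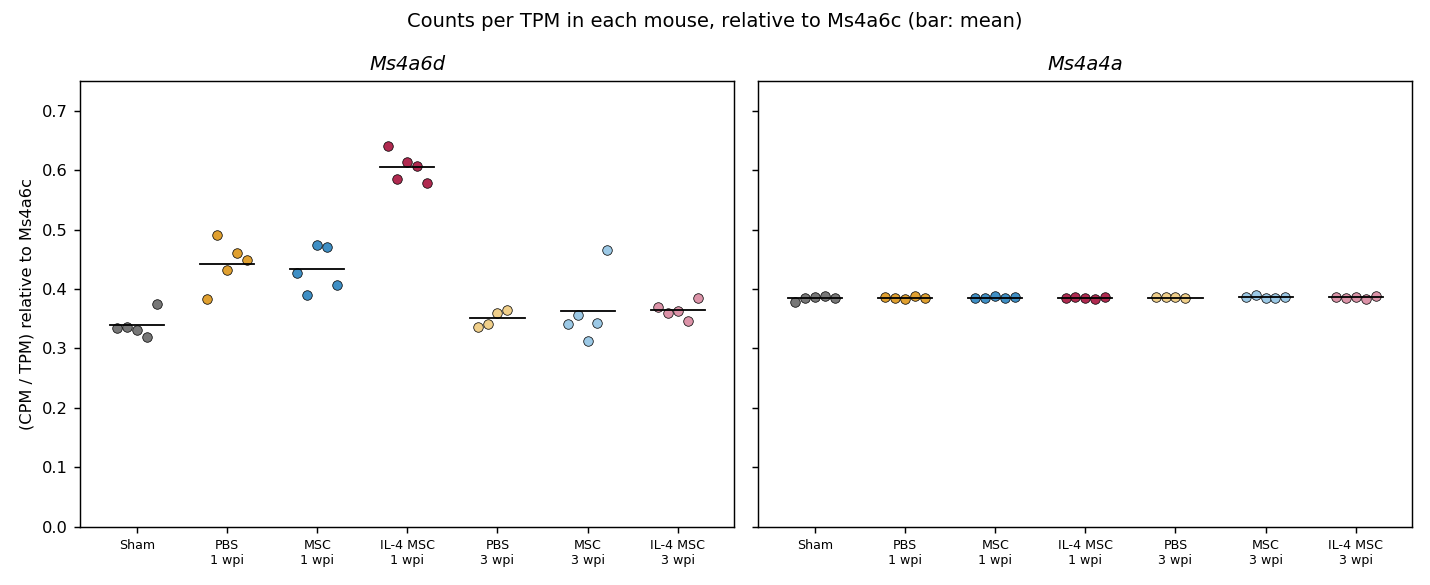
Ratio of CPM to TPM relative to that of Ms4a6c in each mouse, by group, for Ms4a6d and for Ms4a4a, with bars at the group means. Ms4a6d lies at 0.319-0.374 in Sham and 0.579-0.640 in IL-4 MSCs at 1 wpi. Ms4a4a has 1 transcript, as Ms4a6c does, and is level by construction.

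General myeloid genes rose in the same mice, and the members were set beside them. The list of 12 genes expressed across macrophages and microglia (among them Adgre1, which encodes the macrophage antigen F4/80, Cd68, a lysosomal protein, Laptm5 and Ctss) had 12 of 12 higher in PBS than in Sham at 1 wpi (median log2 fold change 1.25, against -0.01 over all genes) and 10 of 12 higher after IL-4 MSCs than in PBS (median 0.78, against -0.00). Its summed level was 193-325 CPM in Sham, 416-524 in PBS, 447-580 with MSCs and 713-922 with IL-4 MSCs at 1 wpi, and no gene was at 0 throughout a group. In each mouse the mean log2 CPM of the list was subtracted from that of each member, and 105 exact permutation p-values over 7 members and 15 comparisons were adjusted together. After IL-4 MSCs against PBS at 1 wpi, the 6 members other than Ms4a8a rose relative to the list, by 3.23 (Ms4a4a), 2.26 (Ms4a7), 1.49 (Ms4a6d), 1.29 (Ms4a4c), 0.90 (Ms4a6b) and 0.53 (Ms4a6c), each with exact p = 0.00794 and adjusted p = 0.0278. Against Sham 5 of the 6 did, the other being Ms4a6c (0.18, adjusted exact p = 0.592). In PBS against Sham at 1 wpi, none was called higher relative to the list, the nearest being Ms4a4a (0.68, exact permutation p = 0.0476, adjusted p = 0.125). Ms4a8a held 0 to 3 counts in these groups, where the prior count sets its value, and it is not counted. The list covers genes expressed in microglia too, and markers of border-associated macrophages and of monocytes rose more. Their mean log2 CPM had medians of 1.26 and 0.524 in PBS and 2.71 and 2.38 in IL-4 MSCs at 1 wpi. Those of the list were 4.45 and 5.24.

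**Figure D5:**
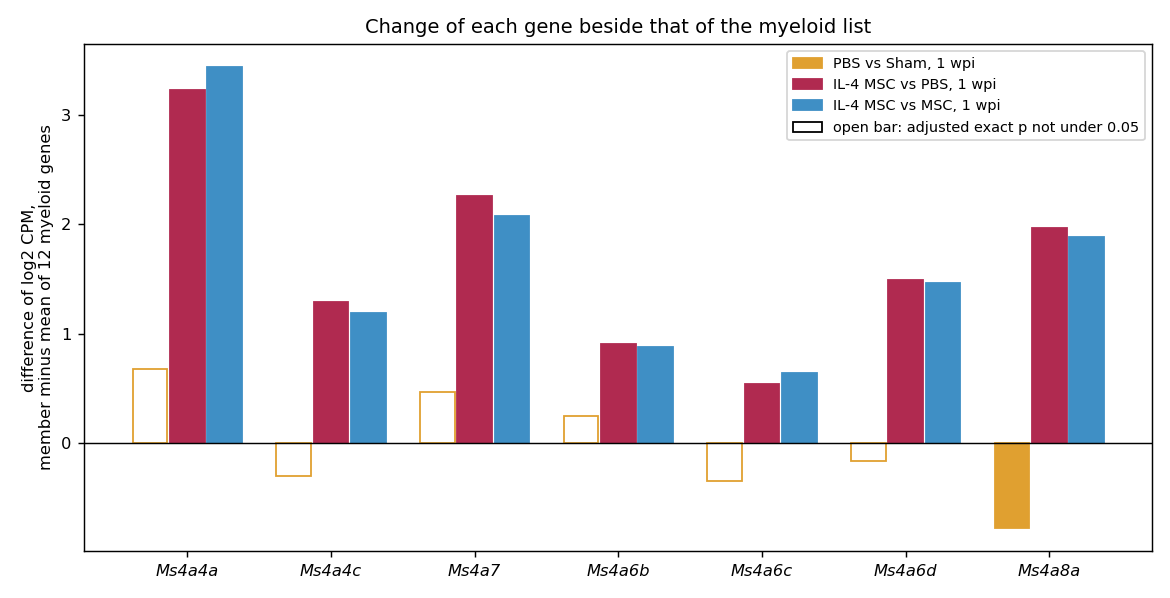
Difference between groups in log2 CPM of each gene minus the mean log2 CPM of 12 myeloid genes, as bars from 0, at 1 wpi. Filled bars passed the exact permutation test: the 6 genes other than Ms4a8a rose beyond the list in IL-4 MSCs against PBS and against MSCs, and none did in PBS against Sham, while the bars of Ms4a8a depend on the prior count.

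Markers of particular cell types moved to different extents with the members, and their part in the result was not tested. Of 10 markers of border-associated macrophages, 8 were higher after IL-4 MSCs than in Sham and 7 than in PBS at 1 wpi (median 1.67 against PBS), led by the mannose receptor Mrc1 (3.72 ± 0.18 against Sham, edgeR adjusted p = 5.38e-16) and the scavenger receptor Cd163 (3.24 ± 0.20, adjusted p = 3.75e-14). Their summed level was 31.3-52.6 CPM in Sham, 58.4-81.9 in PBS, 62.7-96.4 with MSCs and 205.5-261 with IL-4 MSCs. Of 7 monocyte markers, 5 were higher after IL-4 MSCs than in PBS (median 2.19), such as the chemokine receptor Ccr2 and Ly6c2. Their sums were 30.9-61.7 CPM in Sham, 45.2-65.7 in PBS and 69.7-88.4 in IL-4 MSCs. The log2 fold change of Ms4a6c against PBS, the smallest of the members, was 1.31 and lay below both medians. Of 10 genes of resting microglia, 1 was higher after IL-4 MSCs than in PBS (median -0.06, 11.2% of all genes higher). Against Sham 7 of them were higher (18.4% of all genes).

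Other cells were represented as follows. Of 9 T and NK cell genes, 4 were higher after IL-4 MSCs than in PBS (11.2% of all genes), with sums of 9.23-16.4 against 4.71-7.07 CPM. In Sham all 9 together summed to only 3.56-8.73 CPM. Against that low level, the granule protease Gzma was higher by 8.13 ± 0.66 after IL-4 MSCs (edgeR adjusted p = 1.14e-11). One of 4 tested B cell markers, 1 of 6 dendritic cell markers, and 1 of 5 tested neutrophil markers were higher than in PBS, where 11.2% of all genes were. Of 2 tested mast cell markers edgeR called 0, with 0 at an unadjusted p under 0.05. Of 6 Hox genes listed as marks of injected cells, since adult forebrain hardly expresses them, 5 were higher after IL-4 MSCs than in PBS. Their sums were 2.18-3.76 against 0.532-1.20 CPM, with 4 of the 6 at 0 in all PBS mice. A gene at 0 outside the groups given cells could pass the filter on low counts only through those groups. The calls against PBS were thus partly fixed in advance and are no test. Against MSCs edgeR called 0, with 0 at an unadjusted p under 0.05 (1.00-3.98 CPM in MSCs). Of 13 genes of striatum, which lies beside the sampled strip, edgeR called 0 between IL-4 MSCs and PBS at 1 wpi and 9 had an unadjusted p under 0.05 (median log2 fold change 0.92), with summed levels of 454-916 against 307-439 CPM. With their mean level as a covariate, the 6 members other than Ms4a8a were still called in IL-4 MSCs against PBS. Of 7 cortical and 7 hippocampal genes edgeR called 0 each, with 1 each at an unadjusted p under 0.05 (medians 0.05 and -0.56).

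Genes tied to IL-4 and to the members' partners were followed from lists chosen with earlier results of these data known, so their counts are a description. Of 11 genes known to respond to IL-4 in macrophages, 10 were tested, with summed levels of 258-404 CPM after IL-4 MSCs against 8.43-15.1 after PBS at 1 wpi. Their median log2 fold change was 4.36, and 8 were higher after IL-4 MSCs than after PBS (11.2% of all genes). They included Chil3 (10.2 ± 0.46 against Sham, edgeR adjusted p = 1.06e-16), a chitinase-like secreted protein, Retnla (7.12 ± 0.37, adjusted p = 1.22e-15), and the chemokine Ccl24 (6.19 ± 0.28, adjusted p = 1.06e-16). All 7 genes listed as signalling partners were higher in PBS than in Sham (8.73% of all genes) and higher again in IL-4 MSCs than in PBS (11.2%). Clec7a, the dectin-1 receptor, rose by 5.87 ± 0.40 against Sham (adjusted p = 2.75e-13), and Trem2, a lipid receptor of microglia and macrophages, by 1.84 ± 0.15 (adjusted p = 8.88e-12). Tyrobp, the adaptor of Trem2, rose by 1.97 ± 0.15 and the sheddase Adam17 by 0.69 ± 0.05.

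Of 14 other genes of the family or its relatives, 6 were tested. Ms4a14, which lies beside Ms4a7 (chr19:11301249-11314454), was also higher after IL-4 MSCs. It held 0.227, 0.184, 0.195, 0.12 and 0.0915 CPM in Sham, 0.348, 0.393, 0.416, 0.19 and 0.295 in PBS and 4.69, 3.87, 2.85, 3.91 and 1.75 in IL-4 MSCs at 1 wpi. IL-4 MSC mice did not overlap the others. They were higher by 3.32 ± 0.27 than PBS (edgeR adjusted p = 8.45e-11) and by 4.29 ± 0.30 than Sham (adjusted p = 3.4e-13). PBS against Sham was not called (0.97 ± 0.36, adjusted p = 0.0655). MSCs without IL-4 mRNA were called higher than Sham at 1 wpi (1.14 ± 0.35, edgeR adjusted p = 0.0205), without overlap of mice. MSCs against PBS was not called (0.17 ± 0.31, adjusted p = 0.996). Ms4a4b, a T cell gene of the family, had means of 0.541, 0.682 and 1.54 CPM in Sham, PBS and IL-4 MSCs at 1 wpi and was 1.15 ± 0.22 higher after IL-4 MSCs than in PBS (adjusted p = 0.000328). It was also called at 3 wpi against Sham, after MSCs (1.27 ± 0.23, adjusted p = 0.00223) and IL-4 MSCs (1.17 ± 0.23, adjusted p = 0.004).

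The related genes Tmem176a and Tmem176b, on chromosome 6, were higher after injury with injection than in Sham, and little higher again with IL-4 MSCs. Tmem176a had means of 9.67 CPM in Sham, 16.8 in PBS and 21.6 in IL-4 MSCs at 1 wpi, and Tmem176b 15.9, 26.8 and 33.7. Both were higher in PBS than in Sham (0.77, edgeR adjusted p = 0.000255, and 0.72, adjusted p = 1.82e-05), and neither was called in IL-4 MSCs against PBS (0.32, adjusted p = 0.113, and 0.29, adjusted p = 0.0555). Ms4a12 (group means 2.42-2.88 CPM) and Ms4a15 (0.931-1.25 CPM) were not called in any comparison. The other 8 were not tested. The B cell gene Ms4a1 reached 11 counts at most, Ms4a4d 12.03, the mast cell gene Ms4a2 7, Ms4a5 3, Ms4a3 2, and Ms4a10, Ms4a13 and Ms4a18 1.

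At 3 wpi edgeR called at most 1 member against Sham in each treatment. Without Ms4a8a, the median log2 fold change was 0.22 after PBS, 0.76 after MSCs and 0.48 after IL-4 MSCs. Ms4a7 was 2.10 times Sham after PBS, 2.11 times after MSCs and 2.93 times after IL-4 MSCs (fitted fold). Sham replicate 5 was the highest Sham mouse in 5 of 7 members, and its 12 general myeloid genes summed to 325 CPM against 193-204 in the other 4. Without it Ms4a7 was called in MSCs against Sham (1.60, edgeR adjusted p = 0.014), and with it was not (1.08 ± 0.36, adjusted p = 0.168). After PBS 0 of 7 were higher than in Sham by edgeR (0.0233% of all genes), with 1 at an unadjusted p under 0.05 and 0 by DESeq2. After MSCs edgeR called 0 (1.11%), with 5 at an unadjusted p under 0.05 and 2 by DESeq2, Ms4a6b (0.98 ± 0.27, edgeR adjusted p = 0.0708) and Ms4a6d (0.62 ± 0.19, adjusted p = 0.105). After IL-4 MSCs only Ms4a7 was called (2.76% of all genes). Its mice held 0.616, 1.22, 0.479, 0.429 and 0.812 CPM, and those of PBS 0.41, 0.418, 0.724 and 0.459. These mice overlapped Sham, where 1 mouse held 0.549. The difference was 1.55 ± 0.34 (edgeR adjusted p = 0.00827), but it was not called with Sham limited to that week (adjusted p = 0.134) or with only these groups fitted (0.133), with adjusted p between 0.000678 and 0.134 over 19 alternatives. The IL-4 MSC mice at 3 wpi also stood apart in tissue markers. Of 13 striatum genes 9 were higher than in Sham (median log2 fold change 1.53), and they summed to 1597, 394, 1534, 2605 and 1918 CPM in these mice against 222-906 in Sham, while 7 hippocampal genes summed to 280-530 against 397-585. With the striatum level as a covariate, Ms4a7 was at 1.54 (adjusted p = 0.0492).

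Ms4a6b showed the reverse case. After IL-4 MSCs at 3 wpi it held 1.72, 1.99, 1.74, 1.51 and 1.93 CPM, all above the highest Sham mouse at 1.46, but the difference of 0.76 ± 0.28 was not called (edgeR adjusted p = 0.111). It was the 1 member without overlap there, where 2.4% of all genes had none in that direction. MSC mice held 1.46, 1.73, 1.64, 1.29 and 4.19 and PBS mice 1.07, 0.775, 0.932 and 1.51. Among the treatments at 3 wpi, edgeR called 0 of 7 members in each of 3 comparisons. In IL-4 MSCs against PBS (2.17% of all genes higher and 0.776% lower) log2 fold changes lay between -0.31 ± 0.32 for Ms4a4c and 0.74 ± 0.29 for Ms4a6b, in IL-4 MSCs against MSCs (2.29% and 1.18%) between -0.52 ± 0.30 for Ms4a4c and 0.47 ± 0.31 for Ms4a7, and in MSCs against PBS (0.0817% and 0%) between 0.01 ± 0.34 for Ms4a7 and 0.96 ± 0.29 for Ms4a6b. The members at an unadjusted p under 0.05 numbered 1, 1 and 2, and DESeq2 called 0 in each.

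From 1 to 3 wpi the 6 members other than Ms4a8a fell in IL-4 MSCs (16.6% of all genes lower), without overlap of mice (18%). Ms4a4a fell by 5.62 ± 0.39 on the log2 scale, Ms4a7 by 3.38 ± 0.26 and Ms4a6d by 3.06 ± 0.18. Ms4a4c fell by 3.00 ± 0.27, Ms4a6b by 2.46 ± 0.25 and Ms4a6c by 2.05 ± 0.15. The edgeR adjusted p of these 6 was 8.91e-09 at most. Ms4a8a, which passed the filter through IL-4 MSCs at 1 wpi, fell by 5.28 ± 0.57. For Ms4a8a this was 2 counts against 101, a ratio of 0.0188 (95% interval 0.00225-0.0697, for counting error only and no test). The 6 also fell relative to the list of 12 myeloid genes (adjusted exact permutation p = 0.0278). Over the same time 9 of 13 striatum genes rose in IL-4 MSCs (median 1.28), from sums of 454-916 CPM to 394-2605. With their level as a covariate all 6 were still called, and Ms4a6c fell by 1.97 and Ms4a4a fell by 5.61.

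In PBS 4 of 7 fell over the same time (4.9% of all genes), and those 4 had no overlap (6.25%). Ms4a4a fell by 1.97 ± 0.51 (edgeR adjusted p = 0.0141), Ms4a6b by 1.53 ± 0.29 (adjusted p = 0.000574), Ms4a6d by 0.90 ± 0.19 (adjusted p = 0.00254) and Ms4a6c by 0.70 ± 0.16 (adjusted p = 0.00534). The fall of Ms4a4a was not called without PBS replicate 1 at 3 wpi (adjusted p = 0.0723), within a range of 0.00202-0.0723 over 16 alternatives. Ms4a7 (-0.73, adjusted p = 0.216) and Ms4a4c (-0.63, adjusted p = 0.295) were not called. In MSCs 2 of 7 fell (4.93%), Ms4a7 by 0.97 ± 0.29 (adjusted p = 0.0417), without overlap, where 5.24% of all genes had none, and Ms4a6d by 0.57 ± 0.18 (adjusted p = 0.0489). Both lay near the threshold. The adjusted p of Ms4a7 was 0.0574 with a replicate block and reached 0.17 without MSC replicate 3 at 1 wpi. That of Ms4a6d was 0.0565 with no filter on low counts, 0.0586 with the block, 0.236 with only these groups fitted and up to 0.18 with 1 mouse left out. MSC replicate 5 at 3 wpi was the highest of its group in 6 of 7 members, so leaving it out lowers that group. Without it Ms4a4a, Ms4a6b, Ms4a6c and Ms4a6d were called lower, while Ms4a7 was no longer called (edgeR adjusted p = 0.0567). Ms4a8a was called too, but the remaining mice held 0 counts, and it is not counted. The share of all genes called in that fit was not computed.

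The change over time was larger after IL-4 MSCs than after the other treatments for most members. The gap of IL-4 MSCs over PBS shrank from 1 to 3 wpi in 5 of 7 members by a test of the interaction in the same fit (3.93% of all genes), and that over MSCs in 6 of 7 (5.96%). For Ms4a4a the change was 3.65 ± 0.73 (edgeR adjusted p = 0.00207) and 4.40 ± 0.63 (adjusted p = 1.87e-05) on the log2 scale. Ms4a6b was called against MSCs (1.79 ± 0.35, adjusted p = 0.000914) and not against PBS (0.93 ± 0.38, adjusted p = 0.172), though it was there with only these groups fitted (0.0285), with adjusted p up to 0.374 over 26 alternatives. Ms4a8a was called in neither (adjusted p = 0.48 and 0.203). Between MSCs and PBS edgeR called 0 of 7 (0% of all genes), with 1 at an unadjusted p under 0.05 and 0 by DESeq2.

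Across the 34 libraries, the 3 genes outside the members whose log2 CPM was most like that of each member were found. Pearson's r is given as a description, since the points share groups and the same IL-4 MSC mice. Ms4a4a was most like Ccl6 (r = 0.962), Nlrp1b (0.962) and Tgfbi (0.961), and Ms4a4c most like Dhx58 (0.944), Vasp (0.943) and Tgfbi (0.941). For Ms4a6b they were Slfn2 (0.977), Ifi207 (0.972) and Fcgr2b (0.971), for Ms4a6c Ccl6 (0.976), Ctsc (0.974) and Siglec1 (0.971), and for Ms4a6d Ccl6 (0.983), Ccl9 (0.982) and Siglec1 (0.978). Ms4a7 came closest to Cd84 (0.974), Il10rb (0.968) and Rnase4 (0.955), and Ms4a8a to Srgn (0.964), Anpep (0.957) and Bach1 (0.957). The chemokine Ccl6 was thus on the lists of 3 members. Among the members themselves r ran from 0.861 for Ms4a6b with Ms4a8a to 0.982 for Ms4a6c with Ms4a6d.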

How the data were processed

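RNA of 34 mice in 7 groups was sequenced as 50-base paired ends on a NovaSeq. The authors used cutadapt 2.4 for trimming and kallisto 0.46 against the protein-coding transcripts of GENCODE vM23, and deposited estimated counts and TPM per gene, the counts without normalization and the TPM scaled for transcript length and depth by kallisto. The 63 columns of the authors' own comparisons (p-values, q-values and fold changes made with sleuth) were not used, and the excluded mouse was not analysed here. Reads divided between similar genes can move counts among the Ms4a6 genes and between Ms4a4c and Ms4a4b.

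Estimated counts were rounded and tested in 1 fit of the 7 groups with edgeR 4.0.16 (R 4.3.3), using TMM normalization (factors 0.968-1.04), filterByExpr and glmQLFTest, in 15 comparisons and 3 interactions. P-values were Benjamini-Hochberg adjusted over the 17131 genes tested, called under 0.05, and are two-sided. SE is the log2 fold change divided by the root of F. Printed CPM are estimated counts scaled by the library total, without TMM factors. Exact permutation tests used scipy 1.17.1 on log2 CPM with a prior count of 2. The scripts were tested on simulated data. Whether mice of a group shared a litter is not given in the sources used here, so p-values measure the spread between these mice.

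Gene positions, coding sequences and 31-base words came from GENCODE vM21 (GRCm38), a different release from that of the authors, and promoters from RefSeq. Coding identity was computed with Biopython 1.88. All 7 members were named in every comparison, each other family gene once, the 3 genes most like each member by Pearson's r, and at most 4 genes of other lists, those with the smallest adjusted p in IL-4 MSCs against Sham at 1 wpi. The members and lists were chosen with earlier results of these data known. Alternatives were another normalization (DESeq2 size factors), DESeq2 1.42.0, filters, only the groups compared, a replicate block, a striatum covariate, similar genes summed, Sham mice of the same week, leaving out each mouse and, added after seeing the data, not counting Ms4a8a.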

Additional observations from a re-analysis of the deposited data

Results flagged for a closer look

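Dixon's test was run on CPM in 42 sets of mice, formed by 7 groups and the 6 members other than Ms4a8a. In 7 of these sets the highest or lowest mouse was far from the others. Chance alone passes in about 5% of sets if values are normal and sets independent. The members share mice here, so that rate is no measure for the 7. In Ms4a8a 2 sets with 1 mouse above 0 passed by construction. MSC replicate 3 at 1 wpi was high for Ms4a4a (1.58 CPM, next 0.72) and Ms4a7 (1.49 CPM, next 0.972). MSC replicate 5 at 3 wpi was high for Ms4a4a (1.09 CPM, next 0.294), Ms4a6b (4.19 CPM, next 1.73) and Ms4a8a (0.0575 CPM, the other 4 mice at 0). PBS replicate 3 was high for Ms4a4c at 1 wpi (1.92 CPM, next 0.941) and the mouse with that number was high for Ms4a7 at 3 wpi (0.724 CPM, next 0.459). PBS replicate 1 at 3 wpi was the one mouse of its group with Ms4a8a reads (0.0273 CPM, 1 count). IL-4 MSC replicate 5 at 1 wpi was low for Ms4a6d (19.2 CPM, next 25.1).

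In 11 of 21 tests of an interaction, the difference between treatments was larger at 1 wpi than at 3 wpi (edgeR adjusted p). For IL-4 MSCs against PBS the log2 difference shrank by 3.65 ± 0.73 in Ms4a4a (adjusted p = 0.00207), 2.37 ± 0.41 in Ms4a4c (0.000404), 1.35 ± 0.22 in Ms4a6c (0.000173), 2.16 ± 0.26 in Ms4a6d (2.07e-06) and 2.65 ± 0.41 in Ms4a7 (0.000127). For IL-4 MSCs against MSCs it shrank by 4.40 ± 0.63 in Ms4a4a (1.87e-05), 2.43 ± 0.39 in Ms4a4c (0.000105), 1.79 ± 0.35 in Ms4a6b (0.000914), 1.67 ± 0.21 in Ms4a6c (2.97e-06), 2.49 ± 0.25 in Ms4a6d (5.99e-08) and 2.41 ± 0.40 in Ms4a7 (0.000131).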

How the results depend on the processing

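Each member's log2 fold change kept its direction and its side of the threshold in 126 of 126 values with DESeq2 size factors, 125 with no filter on low counts, 124 with a replicate block, 124 with DESeq2, 121 with the striatum covariate, 117 with similar genes summed (sums set beside each of their members), 108 of 108 with at least 1 CPM in 4 libraries (Ms4a8a dropped out), 104 of 108 with only the groups compared, 37 of 42 with the Sham mice of the same week and 1347 of 1428 with 1 mouse left out. Every reversed value was of a member not called in that comparison, and the cause was not tested. Depth limits Ms4a8a, at 3 counts or fewer in 29 of 34 libraries. Relative to the myeloid list, 30 of 105 differences were called, 27 with a prior count of 0.5, 26 with the list's median, 35 relative to resting microglia genes and 26 relative to border macrophage genes. Of the member pairs 24 of 42 were called, and 21 with a prior count of 0.5. With Ms4a8a not counted, a choice made after seeing the data, these were 23 differences and 17 pairs. The numbers in the labels are not shown to pair the mice, since 24 of 99 pairs of same-numbered mice had deviations correlated above 0.1 (median 0.0116, against 0.00122 for other pairs). With the replicate block, 0 members fell from 1 to 3 wpi in MSCs in place of 2, and no other call changed.

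Signs reversed with the striatum covariate for Ms4a6c in MSCs against PBS at 1 wpi (0.0052), Ms4a6b in PBS against Sham at 3 wpi (-0.011), Ms4a8a in IL-4 MSCs against Sham (0.22) and against MSCs (0.17) and Ms4a6c in IL-4 MSCs against PBS (0.11) at 3 wpi. With similar genes summed, the value is that of a sum (Ms4a4a to Ms4a4d, or Ms4a6b to Ms4a6d) and of no single member. The sums had another sign than Ms4a4a (0.036) and Ms4a6c (0.020) in MSCs against PBS at 1 wpi and than Ms4a4c (0.36) and Ms4a6c (0.11) in IL-4 MSCs against PBS at 3 wpi. The Ms4a4 sum was not called from 1 to 3 wpi in PBS (-0.66, edgeR adjusted p = 0.104), where Ms4a4a was. The Ms4a6 sum was called in the interaction of IL-4 MSCs against PBS (1.62, adjusted p = 3.91e-05), where Ms4a6b was not. The Ms4a4 sum alone was called in MSCs against Sham at 3 wpi (0.96, adjusted p = 0.0281), which stands for 2 members. The Ms4a6 sum was not called from 1 to 3 wpi in MSCs (adjusted p = 0.0624), which left 1 member, Ms4a7. With the Sham mice of the same week they reversed at 3 wpi for Ms4a4a (-0.27) and Ms4a6b (-0.10) in PBS and Ms4a4c (-0.15) and Ms4a8a (0.10) in IL-4 MSCs, and 0 members were called in IL-4 MSCs against Sham. With only the groups compared this count was also 0, and 1 member fell from 1 to 3 wpi in MSCs, as with no filter. DESeq2 called 2 members in MSCs against Sham at 3 wpi.

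With 1 mouse left out, values ran as follows. In MSCs against PBS at 1 wpi Ms4a4a ran from -0.46 to 0.053, Ms4a6b from -0.11 to 0.21, Ms4a6c from -0.15 to 0.032 and Ms4a6d from -0.032 to 0.17. Against Sham at 3 wpi they ran in PBS from -0.047 to 0.51 (Ms4a4a) and -0.18 to 0.16 (Ms4a6b), in MSCs from -0.38 to 1.20 (Ms4a4a) and -2.06 to 0.54 (Ms4a8a), with 0 to 2 members called, and in IL-4 MSCs from -0.038 to 0.30 (Ms4a4c) and -0.52 to 0.49 (Ms4a8a). At 3 wpi IL-4 MSCs against PBS ran from -0.11 to 0.0021 (Ms4a6c) and -0.018 to 2.05 (Ms4a8a), IL-4 MSCs against MSCs from -0.54 to 1.00 (Ms4a4a), -0.36 to 0.20 (Ms4a6b) and -0.57 to 2.05 (Ms4a8a), and MSCs against PBS from -0.56 to 0.97 (Ms4a4a), -0.069 to 0.33 (Ms4a4c), -0.11 to 0.25 (Ms4a7) and -1.56 to 2.11 (Ms4a8a). From 1 to 3 wpi in MSCs, 0 to 5 members fell, the 5 including Ms4a8a at 0 counts in the remaining mice. The interaction of MSCs against PBS ran from -1.15 to 0.51 (Ms4a4a), -0.19 to 0.28 (Ms4a4c), -0.0045 to 0.37 (Ms4a7) and -1.78 to 1.90 (Ms4a8a).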

Other observations

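MSC replicate 5 at 3 wpi was the highest mouse of its group in 6 of 7 members. In the same mouse the 12 general myeloid genes summed to 418 CPM against 269-302 in the other 4 mice, and the border macrophage markers to 82.8 CPM against 36.6-45.0, while the resting microglia genes lay within the others (317 CPM against 286-322). MSC replicate 3 at 1 wpi, also the highest mouse in 6 of 7 members, had 580 CPM of general myeloid genes against 447-471 in the other 4 and 96.4 CPM of border macrophage markers against 62.7-71.9. These mice were picked for their member levels, so no test was made.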
